A study of Homo sapiens with 28 samples.

Results

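U937 cells that lacked the NF-kB subunit p52 were compared with control cells after lipopolysaccharide (LPS). The comparison holds 5 of the 28 libraries of the series, chosen by their labels: 2 p52 knockout libraries and 3 control libraries (CTR), all treated with LPS at 500 ng/ml and labelled 6 h. U937 is a human monocytic line that was grown from a histiocytic lymphoma. Each library came from 1 clone of that line. The control clones had been targeted with guide RNAs that match no gene under study, so p52 and CTR clones both went through guide RNA targeting. The same 5 clones were also sequenced untreated at the same time point, and 2 clones each of p50, cREL and RELB knockouts and 3 of p65 were sequenced in both states. A difference between p52 and CTR clones can belong to the knockout or to the few clones that were picked, and these cannot be told apart with 2 clones against 3. The p-values below measure the spread between libraries of different clones. The labels place p52 replicate 1 in sample batch B and replicate 2 in batch A, and CTR replicates 1, 2 and 3 in batches C, B and C. Batch A holds no control clone, so batch was a term of the model, estimated mostly from the other genotypes, and p52 replicate 1 against CTR replicate 2 is the 1 pair within a batch.

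NF-kB proteins are dimeric transcription factors that drive inflammatory genes. LPS acts through the receptor TLR4 and the canonical pathway, in which IkB proteins are degraded and dimers such as p50 with p65 enter the nucleus. p52 is made by cutting the precursor p100, the product of NFKB2, after the kinases NIK and IKKα are activated in the noncanonical pathway. It binds DNA mostly together with RELB, and p100 also holds other subunits in the cytoplasm.

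NF-kB dimers bind short sequences of the general form GGG, 5 bases of any kind, then CC. The promoter stretches below show what such sequences look like, except that the CXCL8 stretch holds the form GGAANNTCC alone. They lie upstream of RGL1, of NFKB2 and NFKB1 themselves, and of 3 LPS-induced genes described further on. RGL1 is the gene called lower whose RefSeq promoter holds a narrower form (GGG, 3 bases of any kind, then TTCC). Each stretch is 30 bases, 5′ to 3′ on the strand of the gene, from RefSeq on GRCh38.p14. Capitals mark letters that match the general form, the narrower form or GGAANNTCC on either strand.
RGL1: gattctcggtgGGGGGGTTCCCatagaaac
NFKB2: ggccgagaaGGGGCTTTCCCggccctgagc
NFKB1: gacgtcagtGGGAATTTCCagccaggaagt
CXCL8: tgcaaatcgtGGAATTTCCtctgacataat
TNFAIP3: tgactttGGAAAGTCCCgtGGAAATCCCCg
NFKBIA: gactggcttGGAAATTCCCcgagcctgacc
They lie at chr1:183636049-183636078 (RGL1, plus strand), chr10:102394491-102394520 (NFKB2, plus), chr4:102501301-102501330 (NFKB1, plus), chr4:73740468-73740497 (CXCL8, plus), chr6:137867185-137867214 (TNFAIP3, plus) and chr14:35404810-35404839 (NFKBIA, minus). The general form stood in 58.7% of all 35116 RefSeq windows of 250 bases before to 50 after a start, so its presence sets no gene apart. The narrower form stood in 6.52% of windows and GGAANNTCC in 4.56%. The patterns overlap one another, and a match is not a bound site. Of the 6 genes called lower below, 3 had a window in the table (STARD4, DENND5A and RGL1), all 3 with the general form and 1 with the narrower form. All 4 genes called higher and named by the rule had a window with the general form, and 1 of them had the narrower form. A gene with several windows counts here if any of them matches, so these counts are not on the scale of the shares of windows.

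The 5 libraries held 12647124 to 21396708 estimated counts each and 23187 to 25593 genes above 0. Across all 28 libraries the totals ran from 12643438 to 22122428. Monocytic markers summed to 832.8 to 2913 TPM in CTR and 1490 to 1773 TPM in p52, with CD33, LYZ, CD68 and FCGR1A present in all 5. MPO, a granule enzyme of early myeloid cells, was listed at 0 in all 5, and CD14, a coreceptor of TLR4, stood at 4.38 to 7.24 TPM in CTR against 0.447 to 0.464 in p52. T and NK cell markers summed to 352.2 to 501 TPM in CTR and 327.3 to 384.9 in p52, most of it NKG7. Of the 14 listed, 9 stayed under 1 TPM in all 5 libraries, with CD3D, CD3E, CD7, CD8A and CD8B at 0. TRAC stood at 6.25 to 8.07 TPM in CTR and 3.34 to 3.56 in p52, and IL7R at 21.4 to 30.7 against 16.9 to 19.7. The part of T and NK cell markers in the results was not tested. In bulk RNA, fewer cells of a kind and less RNA per cell cannot be told apart. A pair of libraries stood apart in ways that touch the results. The clone labelled p65 replicate 1, which lies in batch A beside p52 replicate 2, held RELA at 43.75 TPM untreated and 52.08 with LPS, against 23.24 to 38.27 in the 22 libraries of other genotypes, although RELA encodes p65. It enters the p52 comparison through the batch term, so results are also given without it, an alternative chosen after the data were seen. CTR replicate 1 stood above the other control clones for interferon-stimulated genes, by a median log2 difference of 2.13 from the CTR mean over 50 genes.

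With LPS, 13 of 18624 genes differed between p52 and CTR at an adjusted p under 0.05 (edgeR quasi-likelihood test, Benjamini-Hochberg over all genes tested), which is 0.0698% of genes. Of these, 6 were lower (0.0322%) and 7 higher (0.0376%) in p52, and 1839 genes had an unadjusted p under 0.05, 962 lower (5.17%) and 877 higher (4.71%). The genes that fell encode a glucose transporter (SLC2A3), a monocyte-attracting chemokine (CCL2), the shared signalling chain of the GM-CSF and interleukin-3 receptors (CSF2RB), a sterol carrier (STARD4) and regulators of the small GTPases RAB and RAL (DENND5A and RGL1). Those that rose include the mitochondrial proline-pathway enzyme ALDH4A1 and the redox protein PRXL2A. By their choice the 13 largely had to differ between these libraries, so their separation is given as a description. The groups did not overlap for 12 of the 13, where over all genes 12.2% lay below and 12.7% above all control clones, and all 13 had the same sign within batch B alone. The number of calls moved with the settings. The model treats the untreated and LPS libraries of a clone as separate samples, and fits that do not do so kept fewer of the 13: 2 in the 14 LPS libraries alone and 9 with clone as a random effect in limma voom. Without p65 replicate 1, 239 genes of 18463 were called, among them all 13. With p52 replicate 1 or 2 left out, 0 genes were called by edgeR, at 1404 and 1451 genes with an unadjusted p under 0.05. Without CTR replicate 1 the count was 24, of which 10 were among the 13, and without CTR replicate 2 it was 6, of which 2 were. With the effective gene length as an offset the split was 1 higher and 6 lower. The 13 genes were called in 5 to 12 of 15 alternatives each.

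CCL2 had the lowest fold among the called genes. CCL2 (ENSG00000108691; GRCh38, chr17:34255218-34257203, plus strand) encodes the ligand of the receptor CCR2, which draws monocytes into tissue. It stood at 820.2, 368 and 1023 CPM (estimated counts scaled to a common library size with TMM factors) in CTR replicates 1, 2 and 3 and at 25.7 and 29.1 in p52 replicates 1 and 2. Both p52 clones lay far below every control clone, with a fitted log2 difference of −4.78 ± 0.63 (SE; adjusted p = 0.00538 in edgeR; below CTR in both clones). The gap was present before LPS, when CCL2 stood at 80.3, 132 and 64.3 CPM in CTR and 14.8 and 17.5 in p52 (log2 fold −2.64, edgeR adjusted p = 0.333), so the groups did not overlap in either state. LPS raised CCL2 by log2 differences of 3.35, 1.48 and 3.99 in the control clones and by 0.80 and 0.73 in the p52 clones. That difference in response was −2.15 ± 0.71 on the log2 scale (SE; edgeR adjusted p = 1).

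SLC2A3 had the lowest adjusted p. SLC2A3 (ENSG00000059804; chr12:7919230-7936275, minus strand) encodes GLUT3, a high-affinity glucose transporter. With LPS it stood at 127.7, 141.9 and 153.7 CPM in CTR and at 42.4 and 38.5 in p52, a fitted log2 difference of −1.90 ± 0.25 (SE; adjusted p = 0.00367 in edgeR; below CTR in both clones). Untreated, the 2 groups overlapped, at 37.7, 55.6 and 44.5 CPM in CTR and 36.9 and 46.8 in p52. The 3 control clones raised SLC2A3 with LPS by log2 differences of 1.76, 1.35 and 1.79, while the p52 clones moved by 0.20 and −0.28. Across all genes, the difference in LPS response between p52 and CTR gave 0 calls in edgeR, with 474 genes at an unadjusted p under 0.05, 279 lower (1.5%) and 195 higher (1.05%). SLC2A3 was not called there (log2 difference −1.70 ± 0.31, SE; edgeR adjusted p = 0.358). The untreated and LPS libraries of a clone deviate together, and with each clone as a replicate block SLC2A3 was the 1 gene called (log2 difference −1.68, edgeR adjusted p = 0.0352). CCL2 and SLC2A3 were also the 2 genes called in the 14 LPS libraries alone and the 2 called without a batch term. Each was called in 12 of 15 alternatives that gave a test.

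RGL1 resembled SLC2A3 in its levels before LPS. RGL1 (ENSG00000143344; chr1:183636085-183928531, plus strand) encodes an exchange factor that activates RAL GTPases, and its promoter stretch is the first of those printed above. It stood at 15.2, 10.8 and 14.99 CPM in CTR with LPS and at 3.80 and 2.99 in p52 (log2 fold −2.06 ± 0.39, SE; edgeR adjusted p = 0.0453). Untreated, it stood at 4.70, 6.66 and 5.28 CPM in CTR and 4.39 and 4.96 in p52, where the groups overlapped. With LPS it rose in all 3 control clones, by log2 differences of 1.67, 0.69 and 1.48, against −0.20 and −0.71 in the p52 clones.

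CSF2RB (ENSG00000100368; chr22:36913628-36940449, plus strand) stood at 85.8, 102 and 92.2 CPM in CTR with LPS and at 48.2 and 41.5 in p52. The groups were apart by −1.25 ± 0.19 on the log2 scale (SE; adjusted p = 0.0126 in edgeR). DENND5A (ENSG00000184014; chr11:9138825-9265390, minus strand), an activator of RAB GTPases in vesicle transport, stood at 80.6, 96.2 and 82.8 CPM against 28.9 and 36.6 (log2 fold −1.41 ± 0.26, SE; edgeR adjusted p = 0.0405). Both genes were lower in the p52 clones untreated as well without overlap, at log2 folds of −0.90 and −0.93 that were not called. STARD4 (ENSG00000164211; chr5:111496033-111512590, minus strand), which carries sterol between membranes, stood at 21.9, 59.5 and 18.0 CPM in CTR and 15.3 and 11.5 in p52 (log2 fold −1.70 ± 0.27, SE; edgeR adjusted p = 0.0126). Its high control value belongs to replicate 2, the control clone of batch B, and the other control clones lay only slightly above the p52 clones.

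**Figure D1:**
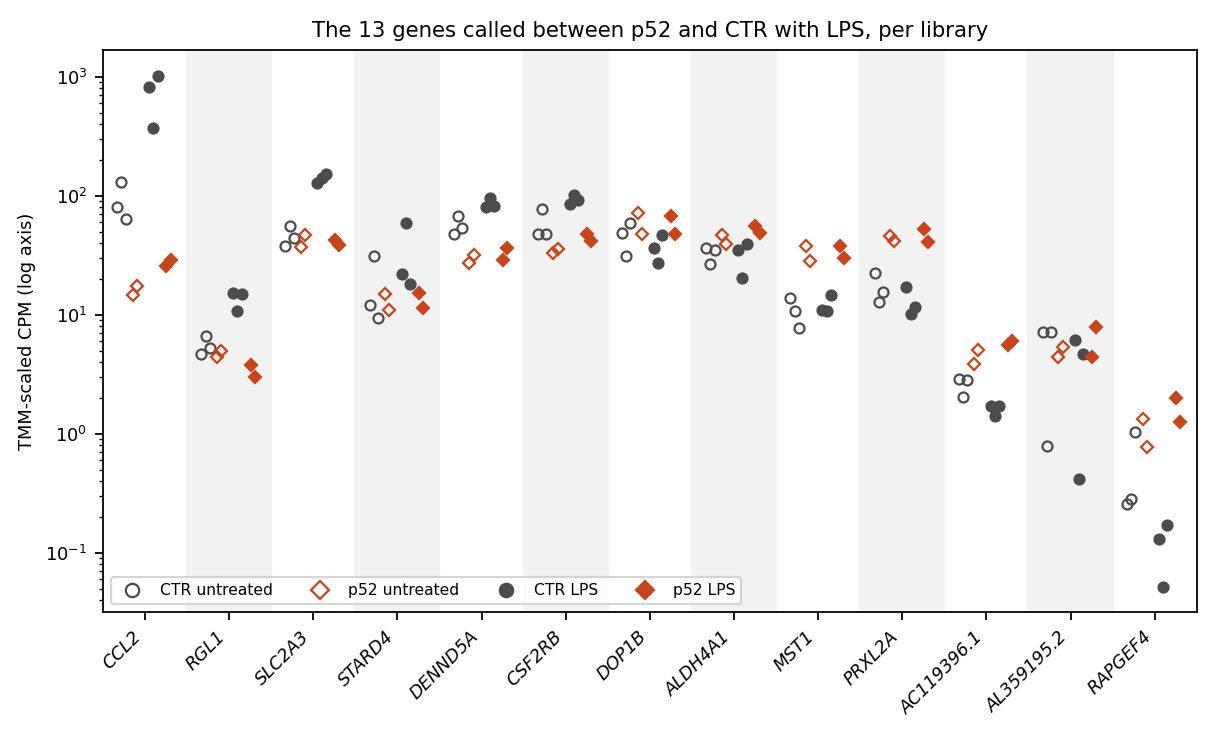
TMM-scaled CPM (log axis) of the 13 called genes in each of the 5 clones, untreated (open) and with LPS (filled); circles are CTR clones and diamonds p52 clones, 1 point per library. For SLC2A3 and RGL1 the open points overlap and the filled points separate, while for CCL2 both pairs are apart.

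The genes called higher were also higher in p52 before LPS by fitted sign, and none of them was called untreated. PRXL2A (ENSG00000122378; chr10:80407829-80437115, plus strand), a peroxiredoxin-like protein, stood at 17.0, 10.1 and 11.7 CPM in CTR with LPS and at 52.8 and 41.0 in p52 (log2 fold 2.09 ± 0.34, SE; edgeR adjusted p = 0.0135). Every p52 value was above every control value with LPS and untreated, when the levels were 22.5, 12.7 and 15.7 against 45.6 and 41.4 CPM. ALDH4A1 (ENSG00000159423; chr1:18871430-18902781, minus strand) stood at 35.3, 20.2 and 39.1 CPM in CTR and 56.1 and 49.0 in p52 (log2 fold 1.29 ± 0.20, SE; edgeR adjusted p = 0.0126). DOP1B (ENSG00000142197; chr21:36156782-36294274, plus strand), a protein of endosomal traffic, stood at 36.4, 27.1 and 46.7 CPM against 67.4 and 48.0 (log2 fold 1.20 ± 0.21, SE; edgeR adjusted p = 0.0302), and p52 replicate 2 lay just above CTR replicate 3. MST1 (ENSG00000173531; chr3:49683947-49689501, minus strand), which encodes macrophage-stimulating protein, stood at 10.9, 10.8 and 14.6 CPM against 37.8 and 29.8 (log2 fold 1.63 ± 0.28, SE; edgeR adjusted p = 0.0302). MST1 has near-identical copies in the genome that could share its reads, so its level is uncertain. The other 3 genes called higher fell outside the naming rule, which asks for a mean of 5 CPM and a gene symbol, and are named after their values were seen. RAPGEF4, an exchange factor for RAP GTPases, had 26 and 27 estimated counts in the p52 libraries against 2, 1 and 3 in CTR (edgeR adjusted p = 0.0347). AC119396.1 stood at 1.70, 1.40 and 1.72 CPM in CTR and 5.58 and 5.98 in p52 (edgeR adjusted p = 0.0453). AL359195.2 was the called gene whose groups overlapped, at 6.15, 0.415 and 4.65 CPM in CTR against 4.42 and 7.87 in p52 (edgeR adjusted p = 0.0405).

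Below these, the naming rule added genes with the next lowest p whose groups did not overlap. None of them was called, and they are given as values. CXCL8, the neutrophil chemokine interleukin-8 whose promoter stretch is printed above, stood at 552, 1784 and 871 CPM in CTR and at 253 and 221 in p52. Its fitted log2 fold was −2.38 ± 0.48 (SE; edgeR adjusted p = 0.074). Untreated, CXCL8 stood at 48.3, 128 and 38.5 CPM in CTR and 32.8 and 27.5 in p52, also without overlap (log2 fold −1.42, edgeR adjusted p = 0.495). The difference in its LPS response was −0.95 on the log2 scale. CISH, an inhibitor of cytokine receptor signalling, stood at 122, 181 and 139 CPM against 73.7 and 75.9 (log2 fold −1.20). CDC42EP3, an effector of CDC42, stood at 259, 224 and 243 CPM against 86.5 and 95.3 (log2 fold −1.31), and the difference was similar in size untreated, at −1.08. The others below CTR were TXNRD1, EAF1 and PPP4R2, at log2 folds of −1.04, −0.80 and −0.99. Above CTR were HTRA1 (1.45), SLC2A5 (0.93), HEXA (0.84), SIL1 (0.80), C11orf49 (2.24), TMEM214 (1.16), PLD3 (0.98) and PRKAR1B (1.24). Their adjusted p-values in edgeR ran from 0.0537 to 0.0839. SLC2A5, a fructose transporter, stood at 51.1 and 50.2 CPM in p52 against 37.5, 29.5 and 29.3 in CTR, the opposite side from SLC2A3.

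The messenger RNA of the NF-kB subunits themselves did not pass the test. NFKB2, which encodes p100 and p52 (chr10:102394110-102402529), stood at 12.1, 11.6 and 15.05 CPM in CTR with LPS and at 2.64 and 3.45 in p52 (log2 fold −1.74 ± 0.53, SE; edgeR adjusted p = 0.229). Both p52 clones lay below all control clones, but NFKB2 was as low in clones whose NFKB2 was not targeted, at 2.38 and 1.63 CPM in p50 and 2.02 and 1.96 in cREL, so its level does not check the label. NFKB1, the gene of p50, stood at 25.1, 27.8 and 33.2 CPM in CTR against 14.7 and 11.5 (log2 fold −1.10 ± 0.31, SE; edgeR adjusted p = 0.181). RELB, the partner of p52, stood at 19.8, 24.8 and 22.8 CPM against 9.30 and 6.58 (log2 fold −1.28 ± 0.54, SE; edgeR adjusted p = 0.434). Untreated, NFKB1 overlapped between the groups, at 13.4, 21.5 and 11.9 CPM in CTR and 17.3 and 13.0 in p52. Of the 5 subunit genes, 2 lay below all control clones untreated (9.64% of all genes) and 1 above (12.8%). With LPS 3 of 5 lay below (12.2%). REL overlapped with LPS, at 46.1, 36.8 and 38.6 CPM against 25.7 and 40.7. RELA overlapped too, at 50.8, 57.6 and 61.2 CPM against 51.8 and 55.1, and no fitted fold is read for it because p65 replicate 1 enters its batch term. The noncanonical pathway list also holds IKBKB, a kinase gene of the canonical pathway. Of the 19 measured genes of that list, none was called, with a median log2 fold of −0.29, or −0.018 without CTR replicate 3. For 5 of them both p52 clones lay below all control clones: MAP3K14 (the kinase NIK, log2 fold −0.84), BIRC3 (−0.66), BIRC2 (−0.46), IKBKB (−0.29) and TRAF3 (−0.18). Over all genes this was so for 12.2%.

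The genes that LPS induced in the other knockouts were low in p52 as a group. The 21 genes with a mean LPS effect above a log2 fold of 1 at an adjusted p under 0.05 over the p50, p65, cREL and RELB clones were taken, so that neither p52 nor CTR levels chose them. All 21 had a fitted log2 fold below 0 in p52 against CTR with LPS, where 51.3% of all genes did, and the median was −1.65 against −0.02 over all genes. Both p52 clones lay below all 3 control clones for 20 of 21, the exception being CXCL10. CCL2 was the 1 member called in the full model, 18 had an unadjusted p under 0.05 with a lower level, against 5.17% of all genes, and 8 were called lower without p65 replicate 1. Untreated, the median log2 fold of the same genes was 0.09, and 4 of 21 lay below all control clones, against 9.64% of all genes. The LPS response of both p52 clones was smaller than that of all 3 control clones for 17 of 21, against 10.7% of all genes, and the median difference in response was −1.58 on the log2 scale. Within batch B alone, p52 replicate 1 lay below CTR replicate 2 for 20 of 21, against 50.2% of all genes. Over 16 alternatives the median stayed between −1.81 and −1.25.

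**Figure D2:**
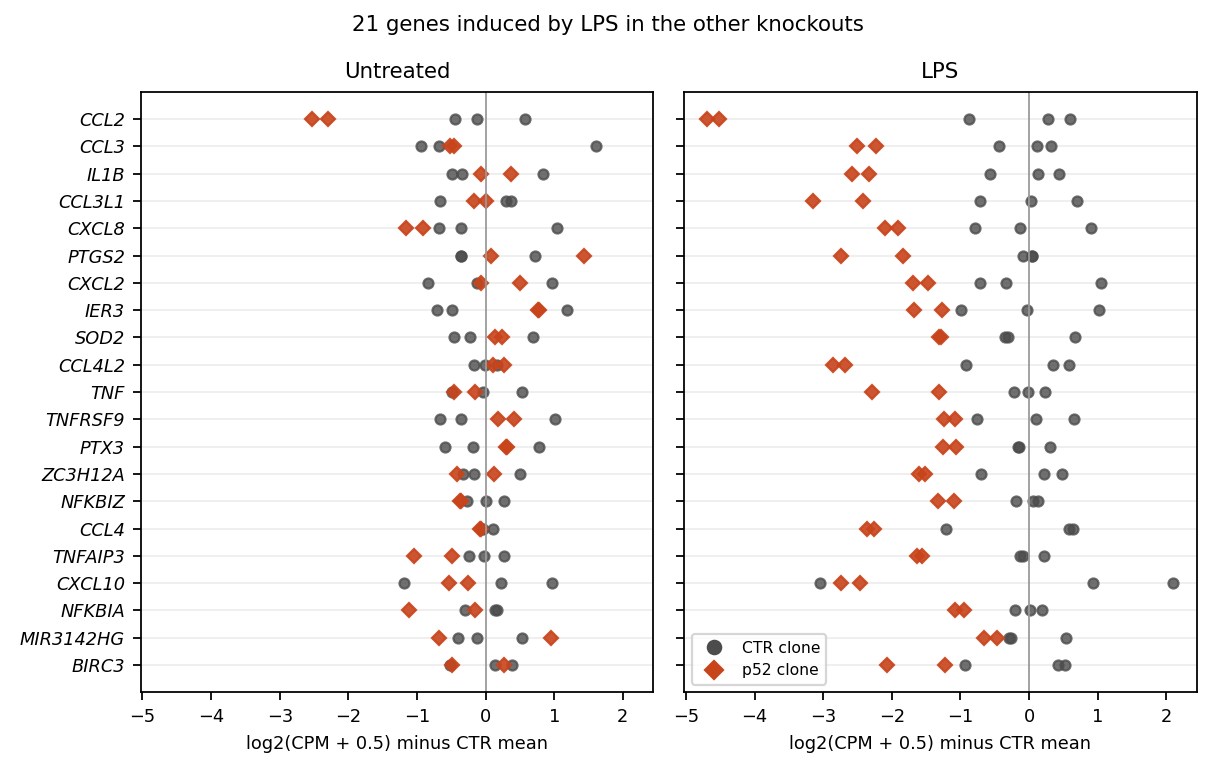
Level of the 21 genes that LPS induced in the other knockouts, as log2(CPM + 0.5) minus the mean of the 3 CTR clones, untreated (left) and with LPS (right); circles are CTR clones and diamonds p52 clones. Untreated the 2 kinds of clone mix for most genes, and with LPS the p52 clones lie to the left of all control clones for 20 of 21.

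Among these genes, the inflammatory cytokines were low in both p52 clones. IL1B, which encodes interleukin-1β, stood at 195, 394 and 316 CPM in CTR and at 56.9 and 48.2 in p52 (log2 fold −2.54 ± 0.58, SE; edgeR adjusted p = 0.105). It had been at 6.57, 15.6 and 5.93 CPM against 11.1 and 8.08 untreated, so the groups overlapped before LPS and not after. TNF, the cytokine tumour necrosis factor, stood at 37.1, 31.2 and 26.8 CPM against 6.05 and 12.4 (log2 fold −1.65, edgeR adjusted p = 0.135). PTGS2, the inducible cyclooxygenase that makes prostaglandins, stood at 18.5, 20.4 and 20.5 CPM against 5.195 and 2.53 (log2 fold −2.10, edgeR adjusted p = 0.2). Both clones were below every control clone for all 3 genes. The antioxidant enzyme gene SOD2, a common NF-kB target, stood at 831, 857 and 1684 CPM against 436 and 427. Feedback inhibitors were low beside the cytokines. TNFAIP3, which encodes the deubiquitinase A20, stood at 162, 157 and 200 CPM against 57.9 and 55.1 (log2 fold −1.02, edgeR adjusted p = 0.399). NFKBIA, which encodes IkBα, stood at 268, 228 and 301 CPM against 137 and 125 (log2 fold −0.69, edgeR adjusted p = 0.479). CXCL10, an interferon-type chemokine, differed most among the control clones, at 2385, 66.9 and 1061 CPM, and the p52 clones at 82.1 and 100.1 lay above CTR replicate 2.

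Chemokines and cytokines were mostly below CTR. Both lists share genes with the 21 LPS-induced genes, such as CCL2, CXCL8 and IL1B, and the feedback list below shares NFKBIA and TNFAIP3. Their counts are therefore not independent of those given for the 21 genes. Of 20 measured chemokines, 1 was called lower (CCL2) and none higher, 17 had a log2 fold below 0, and the median was −1.27. For 10 of the 20 both p52 clones lay below all control clones, against 12.2% of all genes, and for 2 of 20 untreated, near the 9.64% of all genes. Within batch B alone the median was −0.63. The neutrophil chemokine CXCL2 stood at 45.8, 157 and 60.1 CPM against 27.1 and 23.2, and CCL3, which attracts monocytes and T cells, at 139, 94.4 and 160 CPM against 26.8 and 22.1. CCL3 and CCL4 have near-identical copies, CCL3L1 and CCL4L2, between which counts can be split. CCL5, which attracts T cells, overlapped, at 164, 90.8 and 159 CPM against 98.6 and 89.3. Of 21 measured cytokines none was called, 19 had a log2 fold below 0, and the median was −1.61, with 10 below all control clones (12.2% of all genes) and 3 untreated (9.64%). Within batch B alone it was −0.88. IL32 and IL18 overlapped between the groups.

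In the lists that follow, counts below all control clones stand against 12.2% of all genes with LPS and 9.64% untreated. Of 23 genes of NF-kB feedback, none was called, the median log2 fold was −0.69, and 12 lay below all control clones. Of 27 immediate early genes, none was called, the median was −0.68, and 16 lay below all control clones, against 3 untreated. Their untreated median was already −0.56, against −0.01 over all genes, and their median difference in LPS response was −0.20. PIM1, a survival kinase, stood at 1249, 1191 and 2045 CPM in CTR and 332 and 459 in p52 (log2 fold −1.76 ± 0.50, SE; edgeR adjusted p = 0.2). Of 21 genes of adhesion and costimulation, none was called and the median was −0.48, or −0.31 without CTR replicate 2. ICAM1, the endothelial and leukocyte adhesion molecule that integrins bind, stood at 606, 373 and 868 CPM against 170 and 190 (log2 fold −1.41 ± 0.30, SE; edgeR adjusted p = 0.074) and overlapped untreated. CD44, a hyaluronan receptor, stood at 918, 427 and 623 CPM against 352 and 348, and ITGB2 overlapped. Of 23 survival and apoptosis genes, none was called, the median was −0.42 and 9 lay below all control clones. BCL2A1, an antiapoptotic NF-kB target, stood at 88.1, 125 and 333 CPM against 54.9 and 58.5. TLR4 signalling had a median of −0.29 over 22 genes with no call, or −0.19 without CTR replicate 1. TLR4 itself stood at 143, 141 and 138 CPM against 115 and 105, so both clones were below all control clones by a small margin. The lowest log2 fold of the list was −3.61, at the coreceptor gene CD14 (4.38 to 7.24 TPM in CTR against 0.447 to 0.464 in p52), which was not called.

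Interferon-stimulated genes had a low median whose size depended on which control clones entered. Of 50 measured, none was called, 49 had a log2 fold below 0, and the median was −1.45, with 14 below all control clones. Without CTR replicate 1 the median was −0.27, and within batch B alone it was −0.049. Without CTR replicate 2 it was −2.55, without CTR replicate 3 −1.71, and without a batch term −2.50. OAS3, a sensor of double-stranded RNA, stood at 1057, 67.1 and 98.8 CPM in CTR and at 16.9 and 40.2 in p52, so CTR replicate 1 lay far above the other 4 clones. EIF2AK2 overlapped, at 476, 105 and 113 CPM against 102 and 119.

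MHC class I and class II genes, mitochondrial messenger RNA, cholesterol synthesis and glycolysis had medians of −0.18 over 17 genes, −0.21 over 13, −0.18 over 13, 0.03 over 24 and 0.01 over 25, with SLC2A3 the 1 called gene among them. The first 3 moved with the control clones: without CTR replicate 2 they were −0.29, −0.80 and −0.48, and without CTR replicate 3 the MHC class II median was 0.060. The glycolytic enzymes ENO1, GAPDH and PKM had log2 folds of −0.13, 0.01 and −0.01, and the transporter SLC2A1 one of 0.01, so SLC2A3 stood apart within its list. Of 28 proliferation genes, none was called and the median was −0.28, with 13 below all control clones with LPS (12.2% of all genes) and 11 untreated (9.64%). Without CTR replicate 2 the proliferation median was −0.095. Genes of the unfolded protein response had a median of −0.16 over 18 genes (−0.079 without CTR replicate 2), and HSPA5, HSP90B1 and CALR overlapped. Antimicrobial and oxidative burst genes had one of −0.12 over 16, which was −0.34 without CTR replicate 2 and −0.039 without CTR replicate 3. Genes of myeloid differentiation lay on the other side of 0. Monocyte differentiation genes had a median of 0.36 over 22 genes, but the 1 called, CSF2RB, was lower in p52. Promyelocyte granule genes had a median of 0.61 over 14. In these lists ELANE stood at 1139, 413 and 1092 CPM against 1757 and 1035, and LYZ at 2307, 390 and 667 CPM against 1112 and 880, so both overlapped. Both medians were near 0 in some alternatives: they were 0.15 and 0.07 without CTR replicate 2, and −0.07 and 0.25 without a batch term.

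**Figure D3:**
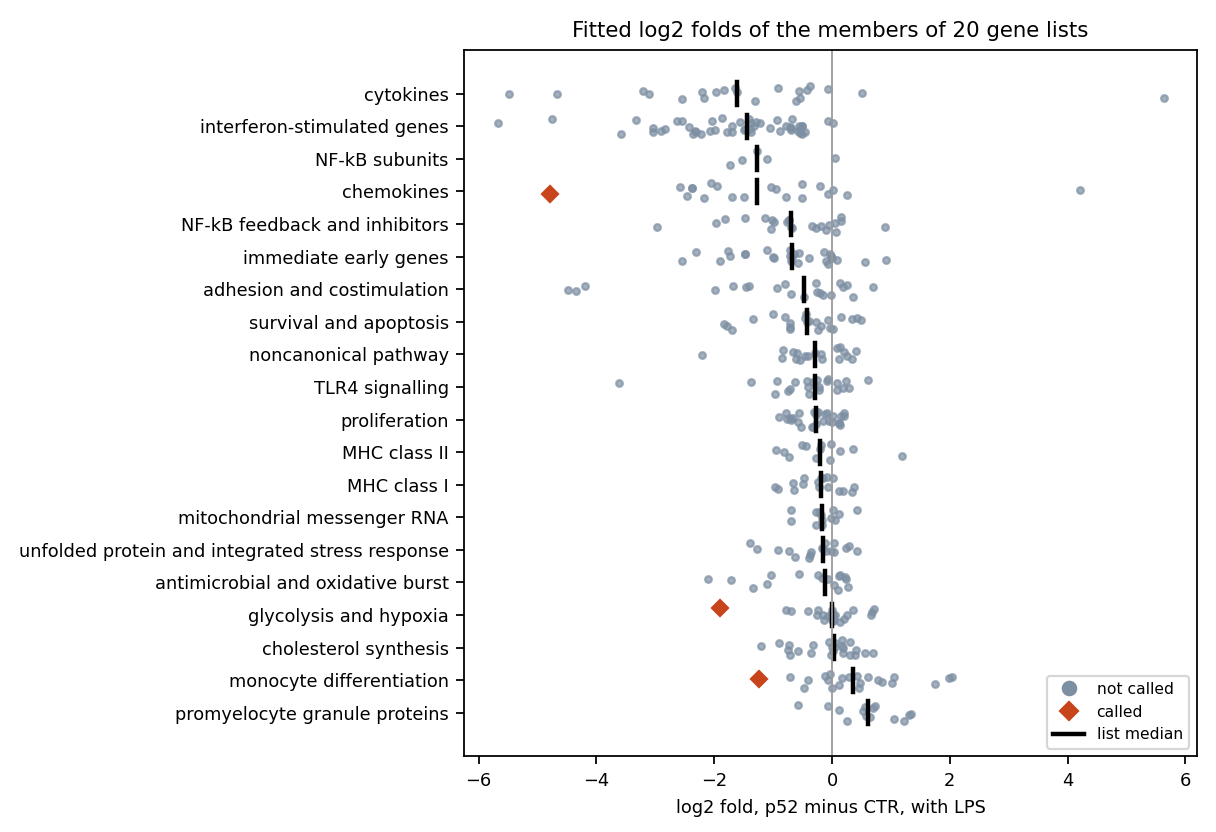
Fitted log2 fold of p52 against CTR with LPS for each measured member of 20 gene lists, with the list median as a bar and called genes as diamonds. Chemokine and cytokine medians lie at −1.27 and −1.61, granule proteins at 0.61; RELA is among the subunits plotted although its fold is not read.

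Without p65 replicate 1, an alternative chosen after the data were seen, 104 genes were called higher (0.563% of 18463) and 135 lower (0.731%). The added calls, also named after their values were seen, include inflammatory genes that lay below CTR in the full model. CXCL8 was called lower (log2 fold −2.81, edgeR adjusted p = 9.09e-04), as were ICAM1 (−1.61, edgeR adjusted p = 0.0205) and IL1B (−3.003, edgeR adjusted p = 0.011). CXCL8 was also called lower untreated in this fit (log2 fold −1.84, edgeR adjusted p = 0.0202). Of the lists, 3 of 20 chemokines, 2 of 21 cytokines, 4 of 21 adhesion and costimulation genes, 2 of 23 feedback genes and 6 of 28 proliferation genes were called lower. The proliferation genes were the mitotic regulators CDK1, AURKA, PLK1, CCNB2, CCNA2 and MKI67. CDK1 had mean levels of 345 CPM in CTR and 184 in p52, without overlap. Of monocyte differentiation genes, 3 of 22 were called higher: CSF1R, CD36 and CSF3R, which encode the M-CSF receptor, a scavenger receptor and the G-CSF receptor. CD36 overlapped between the groups, at 950, 260 and 548 CPM in CTR and 694 and 570 in p52 with LPS. It was also called higher untreated in this fit (log2 fold 1.85, edgeR adjusted p = 0.0327). CSF1R overlapped as well, at 8.46 to 14.1 TPM in CTR and 12.9 to 23.4 in p52. In the same list 1 gene, CSF2RB, was called lower (log2 fold −1.35). Interferon-stimulated genes stayed at 0 calls of 50. Untreated p52 against CTR had 0 calls in edgeR in the full model, with 1416 genes at an unadjusted p under 0.05, 695 lower (3.73%) and 721 higher (3.87%). Without p65 replicate 1 it had 98 calls, 52 lower (0.282%) and 46 higher (0.249%).

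The LPS-treated p52 clones were also set against the LPS-treated p50, cREL and RELB knockouts, which share no library with them. A comparison of p52 with p65 was not run. In p50, cREL and RELB, as in p52, 1 clone lies in batch A and 1 in batch B, so batch is balanced in these comparisons. Against p50, edgeR called 0 genes, with 932 at an unadjusted p under 0.05, 704 higher in p52 (3.78%) and 228 lower (1.22%). Against cREL it called 0 as well, with 788 at an unadjusted p under 0.05, 468 higher (2.51%) and 320 lower (1.72%). Leaving out p50 replicate 1 gave 97 calls, and leaving out cREL replicate 1 gave 11. SLC2A3 stood at 53.6 and 45.3 CPM in p50, 45.01 and 33.5 in cREL and 40.5, 37.1 and 43.1 in p65, near the 42.4 and 38.5 of p52. Its log2 difference was −0.29 ± 0.24 from p50 and 0.05 ± 0.24 from cREL (SE). CCL2 stood at 27.5 and 46.3 CPM in p50 and 29.6 and 35.1 in cREL, again near p52. For the 21 LPS-induced genes the median log2 difference of p52 was 0.38 from p50, 0.49 from cREL and −1.89 from RELB. Over all genes these medians were 0.03, 0.01 and 0.01. Of the 21, 5 were called lower than in RELB, against 0.14% of all genes, and none was called against p50 or cREL. The p50, cREL and RELB libraries with LPS helped to choose the 21 genes, so these differences are partly built in and are given as a description.

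Against RELB, 31 genes were called (0.166%), 26 lower in p52 (0.14%) and 5 higher (0.0268%). At an unadjusted p under 0.05 there were 745 lower (4%) and 904 higher (4.85%). Without p65 replicate 1 the called genes numbered 35, 31 lower (0.168%) and 4 higher (0.0217%). Without either p52 clone 2 were called, and without RELB replicate 1 or 2 the counts were 58 and 75. SLC2A3 stood at 166 and 216 CPM in RELB, above all 3 control clones and about as far from p52 as they were (log2 difference −2.23 ± 0.24, SE; edgeR adjusted p = 2.58e-04). The chemokine and cytokine genes CXCL8, CXCL2, CCL4, CCL4L2, IL1B and OSM were lower in p52 than in RELB. CXCL8 stood at 1350.0 and 1705 CPM in RELB against 253 and 221 in p52 (log2 difference −2.68 ± 0.48, SE; edgeR adjusted p = 0.0234), and IL1B at 559 and 425 CPM against 56.9 and 48.2 (−3.28 ± 0.58, SE; edgeR adjusted p = 0.0234). Of 24 cholesterol synthesis genes, 4 were lower in p52 than in RELB and none higher, with a list median of −0.31, and HMGCS1 and MSMO1 were among the 4. HMGCS1 stood at 96.2 and 112 CPM in RELB against 32.7 and 39.8 in p52, and the control clones, at 27.3, 55.2 and 33.6, overlapped with p52. For this enzyme RELB was the high group. Higher in p52 were DNAAF5, USP20, CD3EAP and IMPDH1, and the pseudogene LSM12P1, which was at 0 in both RELB libraries and at 59 and 202 counts in p52. CSF2RB, SLC2A3 and STARD4 were called against both RELB and CTR, which is 3 of 31 genes and 3 of 13. CCL2, at 182 and 147 CPM in RELB, was not among the 31.

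**Figure D4:**
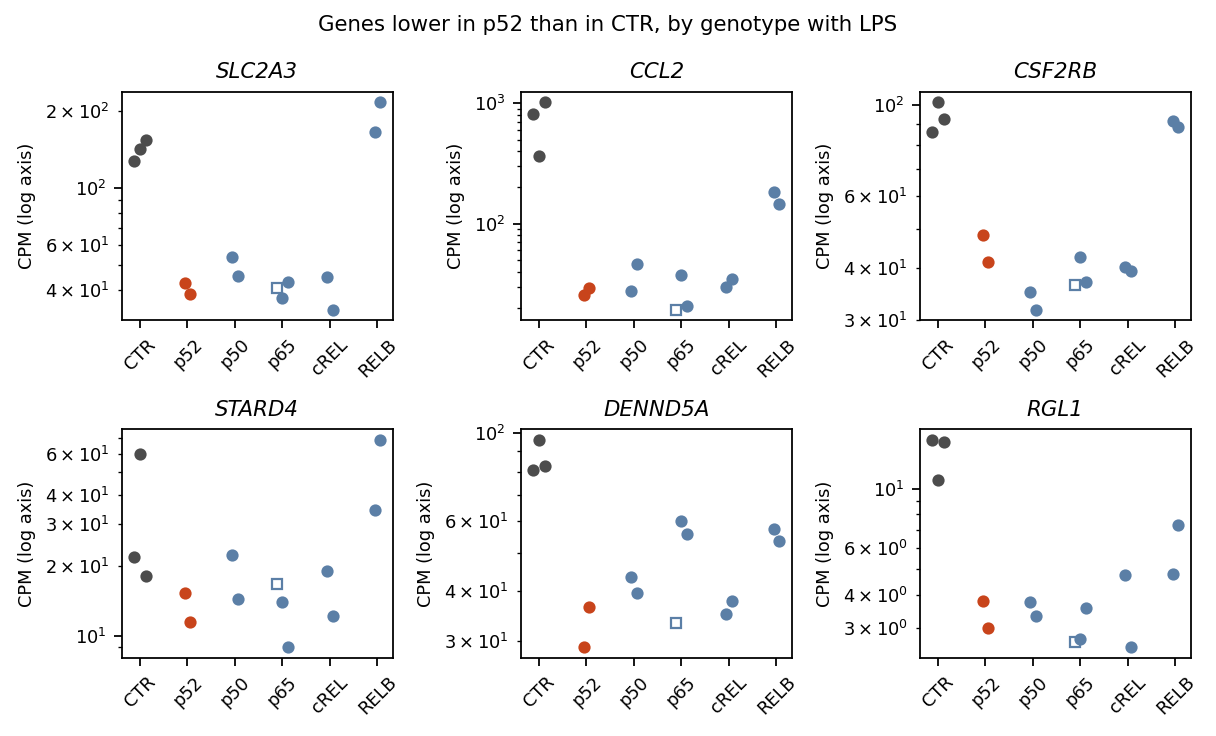
TMM-scaled CPM (log axis) with LPS of the 6 genes called lower in p52, in all 14 LPS libraries by genotype; the open square is p65 replicate 1. For SLC2A3 and CSF2RB the p50, p52, p65 and cREL libraries lie together, below CTR and RELB.

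**Figure D5:**
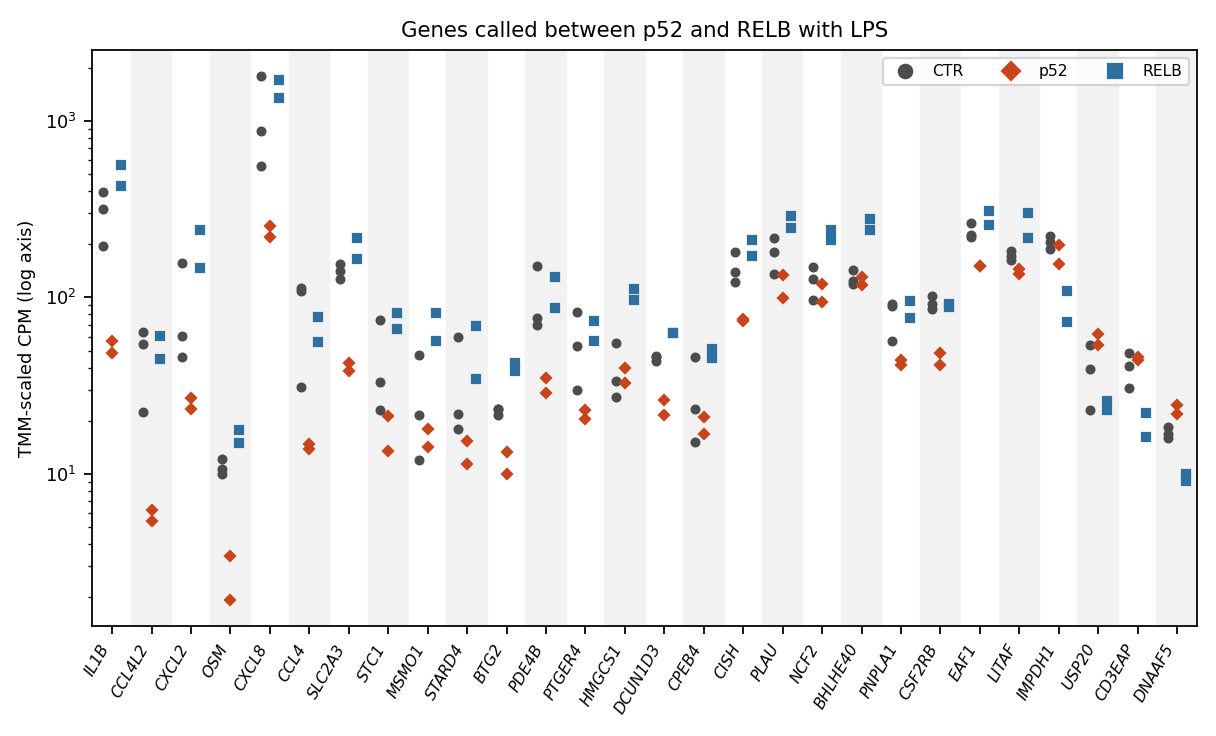
TMM-scaled CPM (log axis) with LPS of 28 of the 31 genes called between p52 and RELB, with the CTR libraries for reference; LSM12P1, at 0 in RELB, is among those not drawn. IL1B and CXCL8 are low in p52 among the 3 groups, while HMGCS1 is high in RELB.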

How the data were processed

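Polyadenylated RNA of 28 U937 libraries was amplified by PCR and sequenced from both ends, per the labels. The authors deposited estimated counts per gene symbol, not scaled between libraries, TPM, and effective gene length in bases. Salmon 0.11.3, FastQC 0.11.7 and GRCh38 are named in the submitters' processing notes; whether counting used strand is not given in the sources used here, so overlapping antisense genes cannot be told apart. Estimated counts were rounded and tested with edgeR 4.0.16 (R 4.3.3): filterByExpr (minimum count 10, total 15) kept 18624 genes, TMM scaling, robust quasi-likelihood fit of 12 groups with additive batch, 14 residual degrees of freedom, biological coefficient of variation 31.7%. Genes were called at a Benjamini-Hochberg adjusted p under 0.05. CPM are TMM-scaled and not corrected for gene length, and log2 CPM used a prior count of 2. All 56809 symbols matched GENCODE 29, whose positions are given. Members, gene lists and tests were chosen with earlier results of these data known. Genes were named by rule: the 5 subunits; up to 12 called genes from either end with a mean of 5 CPM and a gene symbol, filled up with the lowest p among genes whose groups did not overlap; and per list up to 4 called and 3 others of highest CPM. Untreated and LPS libraries of 1 clone deviated together (correlation 0.203 to 0.441), so clones pair. Alternatives used limma voom 3.58.1 (clone as random effect) and DESeq2 1.42.0. The fit was tested on simulated data in which every library was drawn independently. That test therefore cannot show how the fit behaves where libraries of 1 clone deviate together. Some genes that the rule names are not reported here.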

Additional observations from a re-analysis of the deposited data

How the results depend on the processing

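The count of genes called between p52 and CTR with LPS (13) depended on the setting. It was 347 without a filter, 7 with an effective length offset, 2 without a batch term, 2 in the 14 LPS libraries alone, 0 in the 5 libraries alone without batch (1274 at an unadjusted p under 0.05), 22 with limma voom (9 of them shared), 267 with DESeq2 (13 shared), 239 without p65 replicate 1, and 0 to 24 with 1 clone left out. Same-numbered CTR and p52 clones did not deviate together (correlations −0.0162 and −0.0111); with the number as a replicate block the count was 101, or 19 untreated and 54 against RELB. Untreated (0) it was 157 without a filter, 2 with limma voom, 62 with DESeq2, 98 without p65 replicate 1, and 0 to 3 with 1 clone left out. The difference in response (0) gave 75 without a filter, 1 with the clone as a replicate block, 1 with limma voom and 7 with DESeq2. Against p50 (0) it was 169 without a filter, 9 with DESeq2 and 0 to 97 with 1 clone left out, and against cREL (0) 92, 13 and 0 to 11. Against RELB (31) it was 417 without a filter, 1 without a batch term, 11 in LPS libraries alone, 186 with DESeq2 and 2 to 75 with 1 clone left out. The log2 fold of REL, 0.05, turned to −0.28 without batch, −0.27 in the 5 libraries alone, −0.019 with limma voom and −0.65 without p52 replicate 2 (0.60 without replicate 1), and it was −0.52 in batch B alone. Where 1 p52 clone was left out, the lone clone was assumed to vary like the other groups. The causes were not tested.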
